A study of Homo sapiens with 9 samples.

Results

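Fibronectin and 9 other genes used as markers of stromal cells and their non-collagen matrix were measured in HSF-6, a line of human embryonic stem cells, cultured with or without butyrate and DZNep. The genes were FN1, THY1, POSTN, LUM, DCN, PDGFRA, PDGFRB, SPARC, LOX and TGFBI. All probe sets that the array annotation assigns to a single one of these genes were taken, which gave 34 of the 54675 probe sets on the array, for 10 of the 19775 genes that have such a probe set. Of these, 17 probe sets from 8 genes passed the filter on low values and were tested, among 29328 tested in all. The other 17, which include every probe set of POSTN and LUM, are given as levels.

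The series holds 9 Affymetrix U133 Plus arrays in 3 groups of 3. Treated HSF-6(S9), treated HSF-6(8) and untreated HSF-6(8) were each collected after 11 passages and grown for 6 days, and treated means that butyrate and DZNep were both present. Butyrate blocks histone deacetylases. DZNep (3-deazaneplanocin A) disturbs methylation that depends on S-adenosylmethionine, including histone methylation by the Polycomb enzyme EZH2. The labels give no doses, each agent was not measured by itself, and no untreated HSF-6(S9) was analysed here, so subline and treatment cannot be told apart where treated HSF-6(S9) is set against untreated HSF-6(8). The labels do not say that the 3 arrays of a group came from separate cultures, so a p-value reflects only the variation among these arrays, possibly technical.

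Fibronectin is a secreted glycoprotein that cells assemble into fibrils through integrins, chiefly ITGA5 with ITGB1, and it forms an early scaffold on which other matrix is laid down. TGFBI, periostin (POSTN) and SPARC are matricellular proteins, which bind both matrix and cells. Lysyl oxidase (LOX) crosslinks collagen and elastin, and decorin (DCN) and lumican (LUM) are small leucine-rich proteoglycans that bind collagen fibrils. PDGFRA and PDGFRB are receptor tyrosine kinases for platelet-derived growth factors, prominent on mesenchymal cells and pericytes, and PDGFRA also marks early mesoderm and primitive endoderm. THY1 (CD90) is a glycolipid-anchored surface protein that marks fibroblasts and is also carried by undifferentiated human embryonic stem cells, so in this line it is not by itself a stromal marker.

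The start regions of these genes differ in base composition, and 4 of them are shown because their genes had different array patterns: FN1, PDGFRA and TGFBI each had a probe set that was higher on every treated array than on every untreated array, and POSTN lay below the array median on most arrays. Sequences are the 250 bases upstream of the annotated start, 5′ to 3′ on the gene's strand, from RefSeq on GRCh38.p14, where 7 of the 10 genes matched. Capitals mark 4 motifs searched on both strands, with overlapping copies counted: TGACGTCA (the cAMP response element), GGGCGG (the GC box), CCAAT and TATAA.
FN1, chr2:215436069-215436318, minus strand: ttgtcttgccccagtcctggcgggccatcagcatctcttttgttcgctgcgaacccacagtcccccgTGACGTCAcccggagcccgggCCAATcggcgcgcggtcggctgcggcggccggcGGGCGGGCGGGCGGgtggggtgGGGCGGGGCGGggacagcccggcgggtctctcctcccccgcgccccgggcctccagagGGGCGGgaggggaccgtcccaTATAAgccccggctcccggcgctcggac
PDGFRA, the start further downstream, chr4:54233710-54233959, plus strand: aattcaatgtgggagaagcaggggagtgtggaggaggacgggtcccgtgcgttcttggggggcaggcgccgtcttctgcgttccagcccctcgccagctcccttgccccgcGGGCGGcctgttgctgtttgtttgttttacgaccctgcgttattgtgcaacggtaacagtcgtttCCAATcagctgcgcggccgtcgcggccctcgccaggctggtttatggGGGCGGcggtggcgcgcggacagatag
TGFBI, chr5:136028738-136028987, plus strand: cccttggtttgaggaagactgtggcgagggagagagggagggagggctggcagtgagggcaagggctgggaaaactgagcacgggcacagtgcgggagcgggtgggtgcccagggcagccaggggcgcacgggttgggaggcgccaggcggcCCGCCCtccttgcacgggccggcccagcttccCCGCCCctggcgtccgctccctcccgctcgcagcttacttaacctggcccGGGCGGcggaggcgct
POSTN, chr13:37598769-37599018, minus strand: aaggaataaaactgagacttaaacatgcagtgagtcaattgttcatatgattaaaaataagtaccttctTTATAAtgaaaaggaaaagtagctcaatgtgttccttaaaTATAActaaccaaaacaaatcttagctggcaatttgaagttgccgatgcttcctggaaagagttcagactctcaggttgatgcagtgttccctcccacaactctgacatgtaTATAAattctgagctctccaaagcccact

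The FN1 window held 32 CpG dinucleotides at 76.4% GC, and 91.9% of all 35116 such windows held no more CpG than it does. It carried 1 TGACGTCA, 6 GGGCGG, 1 CCAAT and 1 TATAA, and among all windows these motifs occurred in 1.65%, 42.6%, 32% and 18.9%. The PDGFRA window shown held 25 CpG, 2 GGGCGG and 1 CCAAT, whereas the window at its other start held 8 CpG and 1 TATAA. The TGFBI window held 20 CpG and 3 GGGCGG. The POSTN window held 1 CpG, a number that 14.7% of windows did not exceed, and 4 TATAA. The median window held 11 CpG. Of the windows not shown, that of SPARC, a gene bright in every group, held 7 CpG and none of the motifs. That of PDGFRB held 9 CpG, and those at the LOX starts held 13, 18 and 19. The genes whose windows are shown were picked by array pattern, which does not decide between the PDGFRA starts. A relation of CpG content to the pattern was not tested. These letters describe the windows and say nothing of which factors bind there. THY1, LUM and DCN had no entry in the sequence table.

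Every array had been scaled to a trimmed mean of 500.1, and array medians ran from 64.8 to 82.9. The third array of each group stood apart: the mean signal of the 18S ribosomal RNA control probe sets was 1194 on that of untreated HSF-6(8), 723 on that of treated HSF-6(8) and 2149 on that of treated HSF-6(S9), against 316 to 513 on the other 6. The 3′ to 5′ signal ratio of GAPDH, a measure of RNA integrity, lay between 0.976 and 1.21 on all 9 arrays, and that of ACTB between 1.18 and 1.67, the highest on the first untreated array. The third treated HSF-6(8) array also had the highest summed signal of 9 endoderm markers, 12542, against 1665 and 2287 on the other 2 arrays of its group, 1802 to 2344 on treated HSF-6(S9) and 816 to 1376 on untreated HSF-6(8). The summed signal of 6 mesoderm markers was 6169 on it and 572 to 950 on the other 8 arrays. Values without that array are therefore given for the genes called in treated HSF-6(8).

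Fibronectin was the only gene of the set with a probe set that passed the test. FN1 (chr2:215360865-215436068 on GRCh38.p14) had 4 tested probe sets, and on all 4 the 6 treated arrays were above the 3 untreated ones. Its signal was 2.5 to 3.1 times as high in treated as in untreated HSF-6(8), and 1 of the 4 probe sets was called. Of all tested probe sets 0.273% were called higher in treated HSF-6(8) and 8.82% were higher without overlap, and in treated HSF-6(S9) 0.314% and 9.07%. In bulk RNA a change in the number of cells that express a gene and a change in RNA per cell cannot be told apart.

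Probe set 212464_s_at read 1910, 2089 and 2085 in untreated HSF-6(8), 5076, 5729 and 8265 in treated HSF-6(8), and 4644, 6217 and 5509 in treated HSF-6(S9). The lowest treated array was thus more than 2 times the highest untreated array, and the untreated arrays lay close together. The group means were 2028 ± 102, 6357 ± 1684 and 5456 ± 788 (SD, n = 3 each). The probe set rose in treated against untreated HSF-6(8) by 1.61 ± 0.22 (SE) on the scale of log2(signal + 16), with a 95% interval of 1.11 to 2.11 (limma, adjusted p = 0.0212). Against the same untreated arrays it rose in treated HSF-6(S9) by 1.41 ± 0.22, with an interval of 0.92 to 1.91 (limma, adjusted p = 0.0382). Both comparisons use the same 3 untreated arrays and are not independent.

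The first of these calls was kept without the third treated HSF-6(8) array (1.41, limma adjusted p = 0.0456). It was lost without any 1 of the 3 untreated arrays (adjusted p = 0.0973, 0.0988 and 0.0738), without the second treated HSF-6(8) array (0.0890), and on the first and second arrays alone (1.43, adjusted p = 0.0987). The second was lost in 8 of the 9 fits that left out 1 array, with log2 changes between 1.31 and 1.52 and adjusted p between 0.0194 and 0.139, and it held only with the third array of treated HSF-6(8) left out. The direction stayed the same in each of these fits.

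Probe set 210495_x_at, the brightest of the gene, read 2576, 2876 and 3676 in untreated HSF-6(8), 5900, 7192 and 10039 in treated HSF-6(8), and 5491, 11905 and 7872 in treated HSF-6(S9). The groups did not overlap, but the treated arrays were far more scattered than the untreated ones. Its log2 changes were 1.32 ± 0.31 in treated HSF-6(8) (limma, adjusted p = 0.199) and 1.41 ± 0.31 in treated HSF-6(S9) (adjusted p = 0.121), neither of which passed.

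The other 2 tested FN1 probe sets followed the same order of groups. Probe set 211719_x_at had means of 2558 ± 436, 7215 ± 1737 and 7976 ± 3010 (SD, n = 3 each). Its log2 changes were 1.48 ± 0.29 in treated HSF-6(8) (limma, adjusted p = 0.118) and 1.58 ± 0.29 in treated HSF-6(S9) (adjusted p = 0.0714, and 0.0465 with the replicate block, where it was called). Probe set 216442_x_at had means of 2441 ± 164, 6272 ± 1632 and 7752 ± 3502, with log2 changes of 1.33 ± 0.34 (adjusted p = 0.229) and 1.56 ± 0.34 (adjusted p = 0.113).

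**Figure D1:**
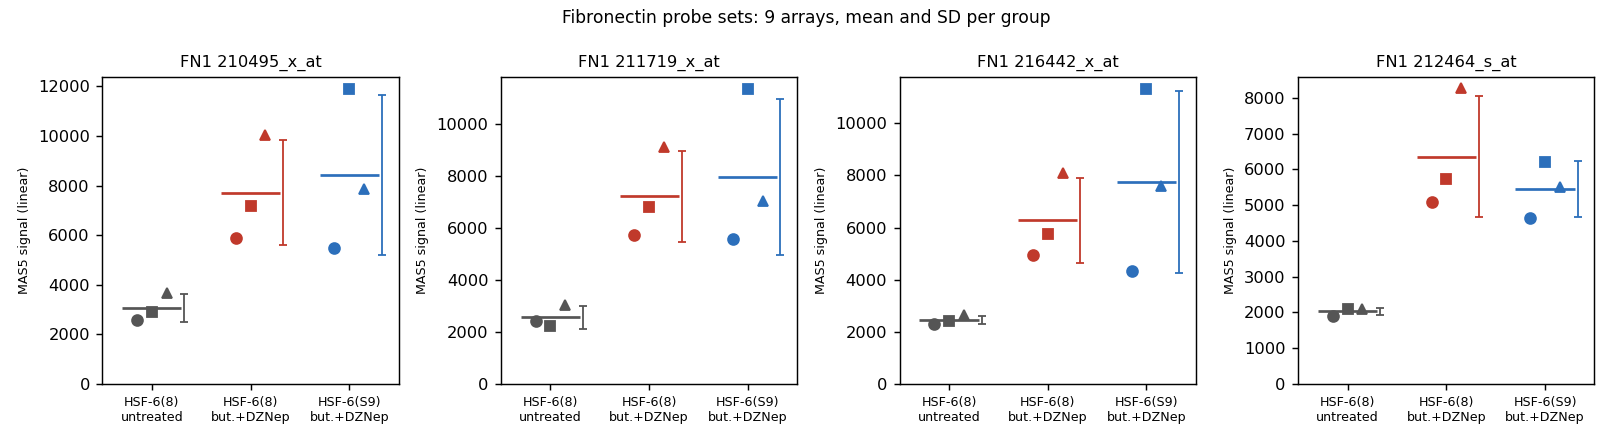
Linear MAS5 signal (y axis, from 0) of the 4 tested FN1 probe sets in the 3 groups (x axis). Circles, squares and triangles are the first, the second and the third array of a group, horizontal lines are means and bars are SD. Each treated array lies above each untreated array in all 4 panels, and on the 3 probe sets ending in _x_at the second treated HSF-6(S9) array is the highest of all 9, at 11326 to 11905.

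The second treated HSF-6(S9) array read between 11326 and 11905 on the 3 probe sets whose names end in _x_at, the highest of all 9 arrays on each. On 212464_s_at it read 6217, below the third treated HSF-6(8) array. The suffix _x_at marks probe sets whose probes can bind other transcripts as well. Across the 9 arrays the 4 probe sets nevertheless moved together, with pairwise Pearson r on the log2 scale between 0.93 and 0.99, given as a description since all share the same RNA. The remaining 3 FN1 probe sets were dim and not tested. Of these, 1558199_at lay between 37.7 and 131, and 214701_s_at and 214702_at between 2.33 and 129, with the highest value of each on the third treated HSF-6(8) array.

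TGFBI (chr5:136028988-136063818), a secreted protein induced by TGF-beta that binds integrins and collagen, was measured by 1 probe set. It read 144, 173 and 166 in untreated HSF-6(8), 189, 211 and 293 in treated HSF-6(8), and 176, 253 and 218 in treated HSF-6(S9). Each treated array was above each untreated array, by a narrow margin for the first treated HSF-6(S9) array. The log2 changes, 0.46 ± 0.22 and 0.38 ± 0.22, did not pass the test (limma, adjusted p = 0.690 and 0.571). Of the members, TGFBI followed FN1 most closely over the 9 arrays (r = 0.91 to the brightest FN1 probe set). Both were higher on all treated arrays, which by itself raises this r.

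SPARC (chr5:151661096-151686915), which binds collagen and is secreted by many cell types, was bright in every group and had no difference that passed. Probe set 200665_s_at read 4239, 4216 and 3787 in untreated HSF-6(8), 3352, 3897 and 5956 in treated HSF-6(8), and 3413, 4453 and 5074 in treated HSF-6(S9). The groups overlapped, and treated arrays lay on either side of the untreated ones. The log2 change in treated HSF-6(8) was 0.07 ± 0.25, with a 95% interval of -0.49 to 0.63, and in treated HSF-6(S9) 0.06 ± 0.25, with an interval of -0.50 to 0.62 (limma, adjusted p = 0.999 and 0.961). These intervals leave out the size of the FN1 change. The second SPARC probe set, 212667_at, had means of 819 ± 48.6, 752 ± 238 and 703 ± 207 and log2 changes of -0.17 ± 0.28 and -0.25 ± 0.28.

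LOX (chr5:122063195-122078259) had its highest value of each group on the third array. Probe set 204298_s_at read 128, 99.5 and 343 in untreated HSF-6(8), 92.3, 80.4 and 815 in treated HSF-6(8), and 108, 52.1 and 264 in treated HSF-6(S9). Without the third arrays treated HSF-6(8) lay below untreated HSF-6(8) by a narrow margin, and treated HSF-6(S9) overlapped both. The log2 change in treated HSF-6(8) was 0.18 ± 0.85, and it was -0.83 without the third treated array and -0.33 on the first and second arrays alone. In treated HSF-6(S9) it was -0.44 ± 0.85 (limma, adjusted p = 0.999 and 0.903). The part of the third arrays' 18S signal in this was not tested. The other 2 LOX probe sets lay between 2.81 and 69.2 and were not tested.

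**Figure D2:**
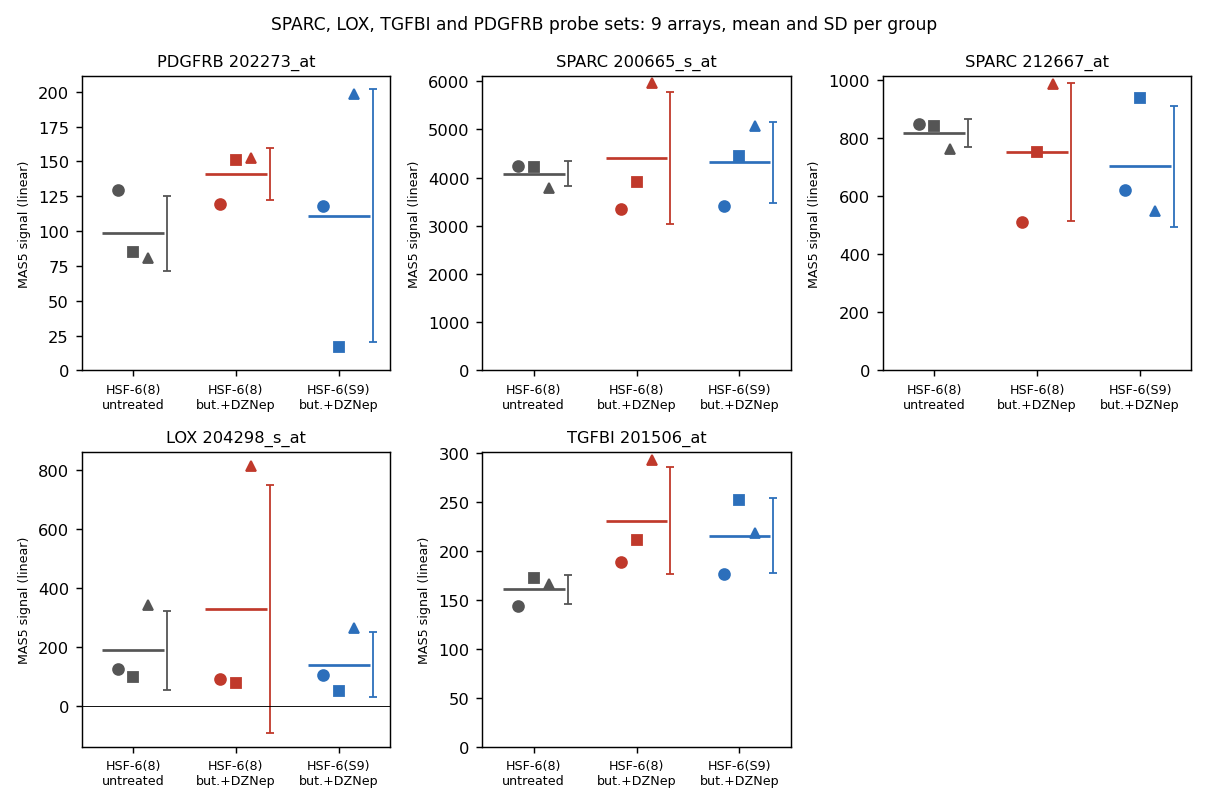
Linear MAS5 signal (y axis) of the tested PDGFRB, SPARC, LOX and TGFBI probe sets in the 3 groups (x axis), with means as lines, SD as bars, and circles, squares and triangles for the first, the second and the third array of a group. The third array is the highest of its group for LOX (343, 815 and 264), where the SD bar of treated HSF-6(8) runs below 0. TGFBI is the only one of these 5 panels in which treated and untreated arrays do not overlap.

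Neither PDGF receptor had a difference that passed. PDGFRA (chr4:54229293-54298245) read 163, 167 and 197 on 203131_at in untreated HSF-6(8), 313, 303 and 426 in treated HSF-6(8), and 302, 220 and 513 in treated HSF-6(S9). Every treated array was above every untreated array, and the treated HSF-6(S9) arrays were the more scattered. The means were 176 ± 18.8, 347 ± 68.8 and 345 ± 151 (SD, n = 3 each). The log2 changes of 0.91 ± 0.29 and 0.84 ± 0.29 did not pass (limma, adjusted p = 0.386 and 0.308).

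Other PDGFRA probe sets gave a mixed account. The second tested one, 215305_at, read 59.8, 66.7 and 171, then 44.4, 115 and 193, then 66.3, 87.4 and 188 in the 3 groups in the same order. The third array was the highest in each group, and the log2 changes were 0.17 ± 0.53 and 0.19 ± 0.53. Probe set 1554828_at was below the array median throughout and not tested, at 6.82 to 14.9 in untreated HSF-6(8), 31.8 to 43.6 in treated HSF-6(8) and 25.2 to 37.5 in treated HSF-6(S9), without overlap between treated and untreated. Probe set 211533_at lay between 1.79 and 16.1.

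PDGFRB (chr5:150113839-150155845) read 129, 85.2 and 80.5 in untreated HSF-6(8), 119, 151 and 153 in treated HSF-6(8), and 118, 16.8 and 198 in treated HSF-6(S9). The groups overlapped, and the treated HSF-6(S9) arrays held both the lowest and the highest value of all 9. The log2 changes were 0.47 ± 0.57 and -0.20 ± 0.57 (limma, adjusted p = 0.999 and 0.943). Without the second treated HSF-6(S9) array the latter became 0.59.

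THY1 (chr11:119415476-119424985) went the other way from fibronectin, without passing the test. Probe set 208851_s_at read 2487, 2083 and 1750 in untreated HSF-6(8), 1048, 1007 and 1453 in treated HSF-6(8), and 1034, 1463 and 995 in treated HSF-6(S9). All 6 treated arrays were below all 3 untreated arrays. The log2 changes were -0.85 ± 0.24 in both treated groups (limma, adjusted p = 0.285 and 0.199), with 95% intervals of -1.38 to -0.31 and -1.39 to -0.32.

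Probe set 213869_x_at read 2112, 1909 and 1819 in untreated HSF-6(8), 835, 877 and 1720 in treated HSF-6(8), and 930, 1000 and 986 in treated HSF-6(S9). Again no treated array reached an untreated one, although the third treated HSF-6(8) array came close. The log2 changes were -0.84 ± 0.27 and -0.99 ± 0.27 (limma, adjusted p = 0.386 and 0.190). In fits that left out 1 array, the change in treated HSF-6(8) ran from -1.17 to -0.65 (limma, adjusted p from 0.0575 to 0.831). That in treated HSF-6(S9) ran from -1.04 to -0.93 (limma, adjusted p from 0.0442 to 0.447). The probe set was called in none of these fits, since a call also needs a change of at least 2-fold.

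The brightest THY1 probe set, 208850_s_at, read 2221, 1876 and 3884 in untreated HSF-6(8), 917, 1137 and 3393 in treated HSF-6(8), and 931, 1276 and 1762 in treated HSF-6(S9). Here the third array was the highest of each group, and the third treated HSF-6(8) array overlapped the untreated ones. The log2 changes were -0.72 ± 0.49 and -0.97 ± 0.49 (limma, adjusted p = 0.897 and 0.510). The third untreated array was thus the highest of its group on this probe set and the lowest on the other 2, and the 3 probe sets correlated over the 9 arrays with r of 0.60, 0.83 and 0.91.

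**Figure D3:**
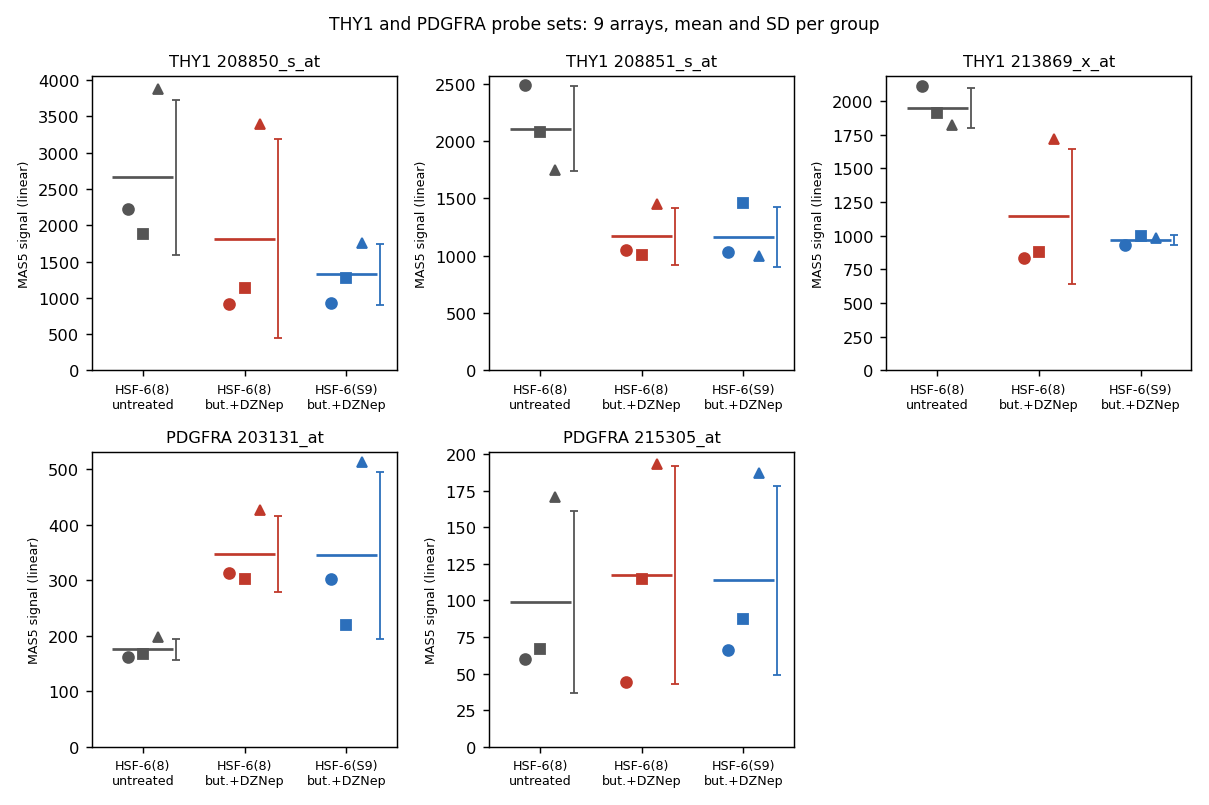
Linear MAS5 signal (y axis, from 0) of the 3 THY1 and 2 tested PDGFRA probe sets in the 3 groups (x axis), with means as lines, SD as bars, and circles, squares and triangles for the first, the second and the third array of a group. THY1 is lower on all treated arrays for 208851_s_at and 213869_x_at, and treated HSF-6(8) overlaps untreated HSF-6(8) for 208850_s_at. PDGFRA is higher on all treated arrays for 203131_at and overlaps for 215305_at.

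Listed stromal markers differed in how they stood to the array medians. POSTN and LUM lay below the array median on most arrays, and DCN close to it, whereas SPARC and 3 markers outside the set, COL1A1, COL1A2 and VIM, read far above it on every array, untreated cells included. No detection calls were at hand, so presence or absence was not called. VIM and SPARC are also made by many cells that are not stromal. POSTN (chr13:37562585-37598768), a product of activated fibroblasts, read 49.8, 74.3 and 52.7 on its brightest probe set, 1555778_a_at, in untreated HSF-6(8), 50.2, 69.0 and 140 in treated HSF-6(8), and 53.0, 33.4 and 31.2 in treated HSF-6(S9). On 201744_s_at LUM (chr12:91102629-91111494) read 1.29, 15.6 and 22.2, then 5.48, 15.7 and 120, then 8.43, 34.3 and 31.1. For both genes only the third treated HSF-6(8) array stood clearly above its group. The other probe sets of POSTN lay between 0.360 and 136 and that of LUM between 2.22 and 31.7.

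DCN (chr12:91140484-91182817) had 3 tested probe sets of 7, all close to the array medians, and they disagreed. Probe set 201893_x_at read 152, 88.3 and 83.3 in untreated HSF-6(8), 84.2, 77.5 and 142 in treated HSF-6(8), and 99.6, 74.6 and 96.3 in treated HSF-6(S9), with log2 changes of -0.08 ± 0.28 and -0.19 ± 0.28. On 211896_s_at untreated HSF-6(8) ran from 50.9 to 77.0, treated HSF-6(8) read 106, 90.6 and 93.0, and treated HSF-6(S9) read 79.8, 165 and 61.8, with log2 changes of 0.47 ± 0.30 and 0.44 ± 0.30. Treated and untreated HSF-6(8) did not overlap on it, unlike on the other 2.

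Probe set 211813_x_at read 110, 70.8 and 84.5 in untreated HSF-6(8), 73.1, 30.1 and 139 in treated HSF-6(8), and 64.2, 10.01 and 64.2 in treated HSF-6(S9). It was lower on each treated HSF-6(S9) array than on each untreated array, the opposite direction from 211896_s_at, with log2 changes of -0.26 ± 0.52 and -0.91 ± 0.52. No DCN difference from untreated cells passed (limma, adjusted p from 0.579 to 0.999), and the 4 untested DCN probe sets lay between 2.90 and 52.1. Of these, 239786_at read 22.7, 52.1 and 20.5 in untreated HSF-6(8) and, without overlap, 3.83, 5.28 and 4.05 in treated HSF-6(8). In treated HSF-6(S9) it read 37.9, 6.98 and 6.99, and overlapped untreated HSF-6(8). Over all 17 untested probe sets of the 10 genes the median signal was 15.9, and 7 of 153 values exceeded the median of their array.

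**Figure D4:**
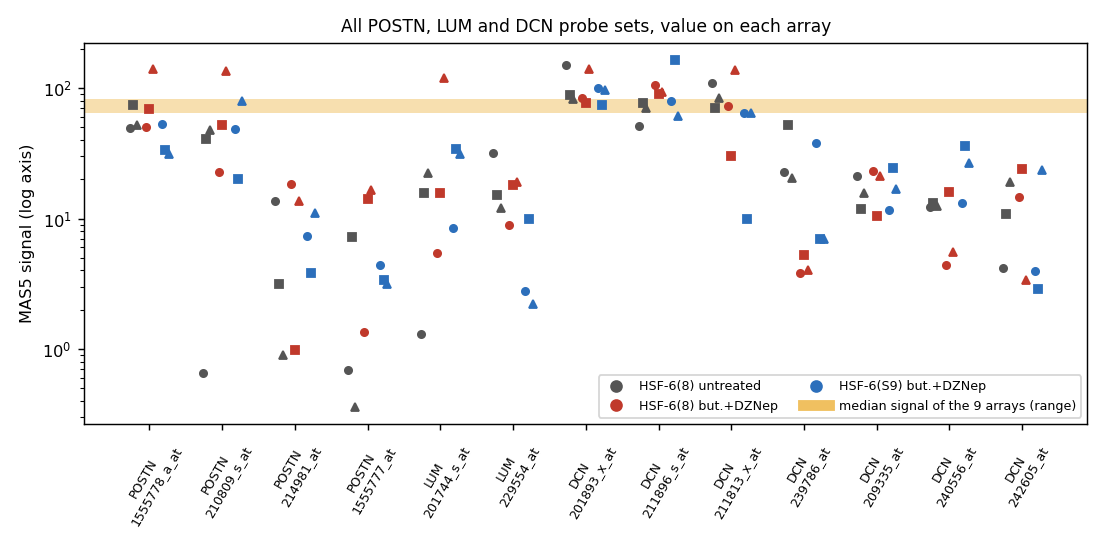
MAS5 signal on a log axis (y) of all POSTN, LUM and DCN probe sets (x axis), 1 point for each of the 9 arrays, with circles, squares and triangles for the first, the second and the third array of a group. The band spans the medians of the 9 arrays, 64.8 to 82.9. POSTN and LUM points lie mostly under the band, and those above it include the third treated HSF-6(8) array at 140 for POSTN and 120 for LUM.

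Counted over the 17 tested probe sets, 1 was called higher in treated than in untreated HSF-6(8), beside 0.273% of all tested probe sets, and 0 were called lower, beside 0.0273%. Groups did not overlap for 7 probe sets in the higher direction, from FN1, DCN, PDGFRA and TGFBI, beside 8.82% of all, and for 2 THY1 probe sets in the lower direction, beside 6.04%. The 4 FN1 probe sets measure 1 gene and are not separate cases. The median log2 change was 0.18 over the 17 and 0.02 over all tested, and 11 of 17 changes were above 0, beside 52.5% of all.

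In treated HSF-6(S9) against untreated HSF-6(8), 1 of the 17 was called higher, beside 0.314% of all tested, and 0 lower, beside 0.075%. Groups did not overlap for 6 in the higher direction, from FN1, PDGFRA and TGFBI, beside 9.07%, and for 4 in the lower direction, the 3 of THY1 and 1 of DCN, beside 8.35%. The median log2 change was 0.06 over the 17 and -0.01 over all, with 9 of 17 above 0, beside 48.2%. In both comparisons limma's unadjusted p was under 0.05 for 7 of the 17, and for 2204 and 3304 of the 29328.

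**Figure D5:**
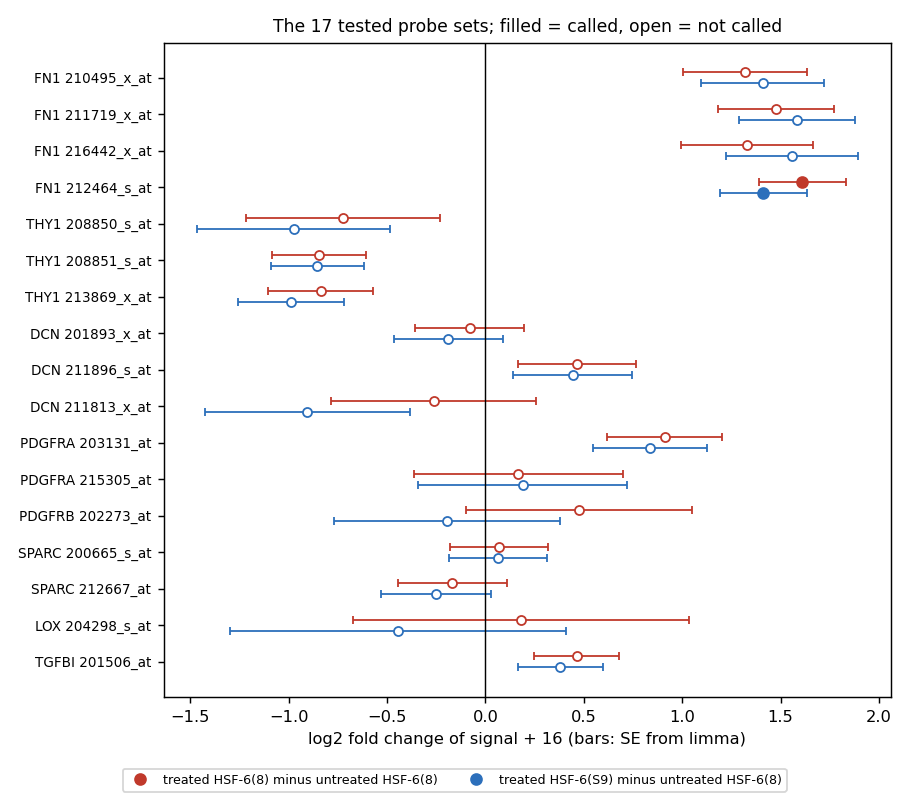
Log2 change of signal + 16 (x axis) with limma's SE as bars for the 17 tested probe sets (y axis), treated HSF-6(8) in red and treated HSF-6(S9) in blue, each against the same 3 untreated HSF-6(8) arrays. The filled points are the 2 calls, both on FN1 212464_s_at, at 1.61 and 1.41. The FN1 points lie right of 1, the THY1 points left of -0.7, and the LOX bars are the widest.

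Treated HSF-6(S9) and treated HSF-6(8) were compared directly to see whether the sublines differed under the same agents. For these genes, 0 of the 17 tested probe sets were called, beside 0% of all tested, and for 0 of 17 the groups did not overlap, beside 6.46% of all. In limma 0 of the 17 had an unadjusted p under 0.05, against 712 of 29328. For FN1 212464_s_at the difference was -0.20 ± 0.22, with a 95% interval of -0.69 to 0.30, and for 210495_x_at 0.09 ± 0.31, with an interval of -0.62 to 0.80. These intervals leave room for differences in either direction, so equality is not shown. The intervals were wider for THY1 208850_s_at (-1.36 to 0.86), PDGFRB (-1.96 to 0.62) and LOX (-2.55 to 1.30). The adjusted p was 0.9998 for each of the 17.

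The neighbours of these genes in matrix assembly were then read from related lists, each gene by its brightest tested probe set. Over all 13519 such genes 59 were called higher and 6 lower in treated HSF-6(8) (0.481%), and 64 and 16 in treated HSF-6(S9) (0.592%). Among the elastic fibre genes 1 of 15 tested was called in each comparison, and it was higher in both. FBN2, which encodes fibrillin 2, a microfibril protein of embryonic tissue, read 176, 211 and 178 in untreated HSF-6(8), 783, 1179 and 723 in treated HSF-6(8), and 637, 875 and 1073 in treated HSF-6(S9). It was far higher on each treated array, with log2 changes of 2.13 ± 0.25 (limma, adjusted p = 0.0105) and 2.08 ± 0.25 (adjusted p = 0.0118). With the third treated array left out, the value for treated HSF-6(8) was 2.26 ± 0.28 (adjusted p = 0.0271) and FBN2 was still called. The list's median log2 change was 0.23 in treated HSF-6(8) and 0.29 in treated HSF-6(S9), against 0.00 over all genes in both.

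Of the fibronectin receptors (integrins, syndecans and CD44), 0 of 11 tested were called. ITGA5, the integrin chain most specific to fibronectin, read 400, 390 and 189 in untreated HSF-6(8), 618, 664 and 945 in treated HSF-6(8), and 662, 545 and 897 in treated HSF-6(S9). Treated arrays were all above untreated ones, with log2 changes of 1.19 ± 0.32 and 1.11 ± 0.32 that did not pass (limma, adjusted p = 0.266 and 0.221). ITGB8 had 0.90 ± 0.37 and 1.21 ± 0.37. The partner chain ITGB1 had means of 12032 ± 1134, 12377 ± 2327 and 10779 ± 1339 (SD, n = 3 each).

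The lysyl oxidase family beside LOX had 4 genes tested and 0 called. LOXL2, a collagen crosslinking relative, had means of 854 ± 229, 1829 ± 355 and 1877 ± 233 and log2 changes of 1.10 ± 0.25 and 1.15 ± 0.25 (limma, adjusted p = 0.174 and 0.118). With the replicate block LOXL2 was called in both comparisons (adjusted p = 0.0480 and 0.0355). Leaving out the third treated HSF-6(8) array, its change there was 1.27 ± 0.26 in a fit with no block (limma, adjusted p = 0.165, not called). LOXL4 had 0.48 ± 0.35 and 0.05 ± 0.35.

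Among the 4 PDGF ligands 0 were called. PDGFC, a ligand of PDGFRA, had means of 425 ± 46.2, 1093 ± 130 and 961 ± 249 and log2 changes of 1.33 ± 0.23 and 1.12 ± 0.23 (limma, adjusted p = 0.0718 and 0.0997). With the replicate block PDGFC was called in treated HSF-6(8) (adjusted p = 0.0492) and not in treated HSF-6(S9) (0.0659). Leaving out the third treated HSF-6(8) array, its change there was 1.26 ± 0.26 in a fit with no block (limma, adjusted p = 0.163, not called). PDGFA, another ligand of PDGFRA, had -0.66 ± 0.21 and -0.57 ± 0.21.

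Relatives of decorin and periostin gave 0 calls. Of the small leucine-rich proteoglycans 4 of 12 were tested, with BGN at 0.88 ± 0.33 and PRELP at 0.51 ± 0.28 in treated HSF-6(8). Of the periostin and SPARC relatives 14 of 16 were tested, with a median log2 change of -0.07 in treated HSF-6(8) and -0.48 in treated HSF-6(S9). TNC, which encodes tenascin C, read 582, 767 and 2081 in treated HSF-6(8) against 287, 287 and 646 in untreated HSF-6(8), the third array being the highest of both groups (1.34 ± 0.50, limma adjusted p = 0.514). SPOCK3 had 1.23 ± 0.41. SPARCL1 went down by nearly as much, with -1.19 ± 0.27 and -1.05 ± 0.27 (limma, adjusted p = 0.173 and 0.176). In this list 6 of 14 changes were above 0 in treated HSF-6(8) and 5 of 14 in treated HSF-6(S9). Of the matrix proteases and their inhibitors 0 of 14 were called, with RECK at 0.87 ± 0.24 and MMP2 at 0.62 ± 0.27.

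Other mesenchymal markers also gave 0 calls among 16 tested, and the 2 largest changes in treated HSF-6(8) were below 0. MYL9, a myosin light chain of contractile cells, read 5238, 4457 and 4396 in untreated HSF-6(8), 2350, 2188 and 3007 in treated HSF-6(8), and 2247, 2247 and 2219 in treated HSF-6(S9). No treated array reached an untreated one, and the log2 changes were -0.91 ± 0.18 and -1.06 ± 0.18 (limma, adjusted p = 0.119 and 0.0540). TAGLN, an actin-binding protein of smooth muscle, read 2168, 2098 and 12908 in treated HSF-6(8) against 6233, 5799 and 10038 in untreated HSF-6(8). The third treated HSF-6(8) array alone lay above the untreated ones. In treated HSF-6(S9) TAGLN read 2349, 2619 and 3344, below each untreated array (-1.38 ± 0.62, limma adjusted p = 0.453).

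Markers of other cell types were read beside these results. In treated HSF-6(8) all 9 tested endoderm markers had a log2 change above 0, with a median of 1.81, but the median deviation from the untreated mean was 1.13, 1.58 and 3.41 on its 3 arrays. Without the third of these, 8 of 9 were above 0 with a median of 1.35, and CER1 read 188 and 234 against 307 to 558 in untreated HSF-6(8) (4489 on the array left out). In treated HSF-6(S9) 8 of 9 were above 0, with a median of 1.40. The main test called 0 of 9, and the replicate block called FOXA2, TTR and APOA2 in treated HSF-6(8) (adjusted p = 0.0398, 0.0214 and 0.0482) and TTR in treated HSF-6(S9) (0.0279). In a fit with neither the block nor the third treated HSF-6(8) array, the changes of FOXA2, TTR and APOA2 were 1.77 ± 0.47, 2.10 ± 0.68 and 1.61 ± 0.23. In that fit limma called APOA2 (adjusted p = 0.0497) and GATA6 (2.13 ± 0.25, adjusted p = 0.0238). GATA6, an endoderm regulator, read 74.8, 59.9 and 80.0 in untreated HSF-6(8), 281, 471 and 2541 in treated HSF-6(8), and 276, 290 and 327 in treated HSF-6(S9), above the untreated level on every treated array (3.04 ± 0.64, limma adjusted p = 0.138; TTR 2.78 ± 0.73). FN1 is made by several embryonic cell types, and the part of endoderm-like RNA in its change was not tested.

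The pluripotency markers gave 0 calls of 10 tested, with a median log2 change of -0.19 in treated HSF-6(8) and -0.07 in treated HSF-6(S9), and NANOG at -0.48 ± 0.26 and SALL4 at 0.47 ± 0.47 in the former. Of 4 trophoblast markers tested 1 was called higher in both comparisons, GATA3, at 2.17 ± 0.22 and 2.19 ± 0.22 (limma, adjusted p = 0.00413 and 0.00441). GATA3 was still called in treated HSF-6(8) with the third treated array left out (2.16 ± 0.25, limma adjusted p = 0.0238). The other trophoblast markers tested, CGA, TFAP2A and KRT7, had 0.90 ± 0.82, 0.63 ± 0.52 and 0.16 ± 0.36 in treated HSF-6(8). The median of that list was 0.76 in treated HSF-6(8) and 0.93 in treated HSF-6(S9). No marker was called among 6 mesoderm, 4 endothelial, 3 neuroectoderm, 6 smooth muscle and pericyte, and 1 blood marker tested, or among 9 of 12 fibroblast and stromal markers, a list that shares 4 tested genes with the set described here. The largest uncalled changes in treated HSF-6(8) were EOMES (1.80 ± 0.82, and 0.64 without the third treated array) and TBXT (1.55 ± 0.76, and 0.57) for mesoderm, VWF (1.95 ± 0.36, and 2.06) for endothelium, PAX6 (0.98 ± 0.31, and 1.08) for neuroectoderm and TAGLN (-0.87 ± 0.62, and -1.73) for smooth muscle. These genes do not stand for their whole lists. The list medians were 0.87, 0.41, 0.50 and -0.25 for mesoderm, endothelium, neuroectoderm, and smooth muscle and pericytes. Without the third treated array they were 0.36, 0.03, 0.81 and -0.16. PECAM1 had -0.25 ± 0.23, with 3 of 4 endothelial changes above 0. ACTA2 had 0.70 ± 0.65, with 2 of 6 smooth muscle and pericyte changes above 0. The blood marker tested, CD34, gave -0.07 ± 0.27. COL1A1, a chain of the main fibrillar collagen of stroma, read 4461, 4899 and 3789 in untreated HSF-6(8), 8829, 8707 and 10614 in treated HSF-6(8), and 9690, 6692 and 4655 in treated HSF-6(S9). Treated and untreated HSF-6(8) did not overlap, and the third treated HSF-6(S9) array lay within the untreated range (1.10 ± 0.27 and 0.62 ± 0.27, limma adjusted p = 0.213 and 0.426). On the third treated HSF-6(8) array the median deviation of the 9 fibroblast and stromal markers from the untreated mean was 1.20. It was 0.27 and 0.06 on the other 2 arrays of the group and 0.26, 0.24 and 0.78 in treated HSF-6(S9).

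The genes whose brightest probe set most resembled that of FN1 over the 9 arrays, out of 13518, were DNAJC15 (r = 0.98), PERP (0.97), SREBF1 (0.97), EPSTI1 (0.96) and NTN1 (0.96). These are Pearson correlations on the log2 scale over arrays of 3 groups, so a gene that differs between treated and untreated arrays scores high by that alone. DNAJC15, a mitochondrial co-chaperone, averaged 1730 in untreated HSF-6(8), 3706 in treated HSF-6(8) and 3650 in treated HSF-6(S9). NTN1, which encodes the secreted guidance protein netrin 1, averaged 67.8, 241 and 206 in the same order.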

How the data were processed

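The authors deposited linear signal intensities, 1 per probe set and array, made with Affymetrix Expression Console and MAS5 per the submitters' processing notes, with versions not given in the sources used here. RNA was amplified and labelled with biotin, per the labels. MAS5 scales each array, which removes any overall change in RNA, and its signals carry no detection calls here. The number of arrays limits precision.

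To each value 16 was added before log2, so changes of dim genes are understated. Of the probe sets without the 62 controls, those above their array's median on at least 3 of 9 arrays were kept (29328). All 9 arrays entered 1 limma fit (limma 3.58.1, R 4.3.3) with 6 residual and 3.20 prior degrees of freedom, tested on simulated data. P-values were two-sided with Benjamini-Hochberg adjustment over the 29328. Called means an adjusted p under 0.05 and a change of at least 2-fold.

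A member probe set is given in full if it is the brightest of its gene, is called, or opposes the brightest, and all other tested ones at least by their changes. From the related lists (matrix, receptor, ligand, mesenchymal, endoderm and pluripotency genes) up to 4 called genes, otherwise the 2 largest changes in treated HSF-6(8), are named. ITGB1, SPARCL1, 3 further endoderm genes (APOA2, FOXA2 and CER1) and the genes named from lists of other cell types were added after their values were seen. Members and lists were chosen with earlier results of these data known.

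The prime marks in the sample titles number the arrays of a group. After removing group means, arrays with the same mark correlated at 0.32, 0.28 and 0.59 within HSF-6(8), treated against untreated. For treated HSF-6(S9) the values were 0.12, 0.20 and 0.54 to untreated and 0.27, 0.22 and 0.41 to treated HSF-6(8). All of these exceed 0.1, so the replicate block is given where it changes a call. Arrays with different marks, the first and the second, also correlated, at 0.29 and 0.38 within HSF-6(8). For treated HSF-6(S9) such pairs gave 0.34 and 0.21 to untreated and 0.15 and 0.06 to treated HSF-6(8). Among first and second arrays the same mark thus did not regularly go with the higher correlation, which limits what the block's calls can show. Other alternatives were the added number, the filter, quantile normalization, 1 value a gene, the third arrays as a batch, and leaving out arrays.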

Additional observations from a re-analysis of the deposited data

How the results depend on the processing

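The member probe sets called in treated against untreated HSF-6(8) (1) became 0 on the first and second arrays only, with no filter on low values (54613 tested), and with 1 probe set a gene or the mean over each gene's probe sets. In treated HSF-6(S9) against untreated HSF-6(8) (1) they became 0 with 1 probe set a gene, on the first and second arrays only and with no filter, and 2 with 64 added before log2, a 75th percentile filter, quantile normalization, the replicate block and the third arrays as a batch block, FN1 211719_x_at being the second. Leaving out 1 array at a time gave 0 to 1 in both, and between the treated groups 0 throughout. The mean of the FN1 probe sets passed in treated HSF-6(S9) (1.49, limma adjusted p = 0.0422) and not in treated HSF-6(8) (0.0599). Without the first treated HSF-6(S9) array FN1 216442_x_at passed there too (1.92). The replicate block changed no other call of a member probe set.

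The median log2 change of the members in treated HSF-6(8), 0.18, ranged from -0.17 to 0.58 when 1 array was left out, the highest without the first treated array. That of treated HSF-6(S9) ranged from -0.10 to 0.22, and that between the treated groups from -0.21 to 0.16. A change of sign was counted only where a value lay over 1 SE from 0. It occurred for PDGFRB between the treated groups (leave-one-out range -1.23 to 0.12) and against untreated HSF-6(8) (-0.76 to 0.59), both without the second treated HSF-6(S9) array, and between the treated groups on the first and second arrays only for SPARC 212667_at (0.29) and THY1 208851_s_at (0.26). The causes were not tested. Signals near the array median, as for POSTN, LUM and DCN, limit what can be said of those genes.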
